A study of Mus musculus with 9 samples.

Results

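The 9 genes described here encode the main receptors through which neurohormones act on the heart, and the adenylyl cyclases that several of them drive or restrain. They were taken from the deposited table by exact match of the gene name to Adrb1, Adra1a, Adra1b, Chrm2, Agtr1a, Ednra, Ednrb, Adcy5 and Adcy6, and all 9 were among its 55401 genes. Of these, 8 had enough counts to be tested, with 16762 genes tested in all, and Adra1a did not. RNA was sequenced from neonatal mouse ventricular myocytes (NMVMs), primary heart muscle cells taken from wild-type C57BL/6J mice at 1 day of age, in 3 groups of 3 libraries. The control group was kept at normal oxygen in complete medium (DMEM with 10% FBS). The hypoxia group spent 6 h in a closed AnaeroPack chamber in medium without glucose and serum, and the hypoxia + rSRGN group received recombinant serglycin (rSRGN), a proteoglycan, during the same hypoxic period. Low oxygen and the change of medium therefore cannot be told apart in any comparison with control. The labels do not say whether libraries of a group came from separate cultures or litters, so p-values measure the spread between these libraries, which may be technical.

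Noradrenaline and adrenaline act on β1-adrenergic receptors, which stimulate adenylyl cyclase through Gs, raise cyclic AMP and activate protein kinase A, and so raise the rate and force of the heartbeat. Acetylcholine acts on M2 muscarinic receptors, which lower cyclic AMP and open potassium channels through Gi and its βγ subunits. The α1-adrenergic, angiotensin AT1 and endothelin receptors signal mainly through Gq, phospholipase Cβ and calcium, a route long studied for the hypertrophic growth of cultured neonatal myocytes.

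Total counts were 21669017 to 22781557 in control, 16583985 to 18148474 in hypoxia and 16640239 to 20826701 in hypoxia + rSRGN, so a low gene is counted with somewhat less precision in the hypoxic groups. Levels are given as CPM, the usual scaling of counts to library size, with TMM factors, and as CPM per kilobase of exon where 1 gene is set beside another. A gene was called when its p from edgeR's quasi-likelihood test, after Benjamini-Hochberg adjustment, was below 0.05 and its level differed at least 1.5-fold. The cells labelled as ventricular myocytes carried all 8 cardiomyocyte markers examined (Tnnt2, Tnni3, Myh6, Myl2, Myl3, Actn2, Ryr2 and Pln), with a summed level of 32980 to 40560 CPM in control, and they also carried fibroblast markers at 8657 to 10240 CPM. The cultures are thus mixed by their RNA, and in such bulk samples fewer cells of a type and less RNA per cell cannot be told apart.

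The promoter sequences of 3 of these genes are shown because the genes differ in what lies just before their start sites. RefSeq promoter windows (build GRCm38.p6) matched 6 of the 9 genes, with 7 windows since Adra1b has a pair of starts. Chrm2 is shown as the gene with the largest fitted fall, and Adrb1 and Ednrb as the only ones of the 6 whose 250 bases before the start held TGACG, a core of the element bound by the cyclic AMP responsive factor CREB. These letters are in capitals, and each sequence runs 5′ to 3′ on the strand of its gene.
Chrm2 (chr6:36387834-36388083, plus strand): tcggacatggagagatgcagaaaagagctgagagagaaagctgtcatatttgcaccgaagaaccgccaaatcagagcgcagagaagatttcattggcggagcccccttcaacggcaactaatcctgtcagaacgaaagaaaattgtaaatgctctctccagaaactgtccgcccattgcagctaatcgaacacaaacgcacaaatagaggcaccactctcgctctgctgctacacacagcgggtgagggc
Adrb1 (chr19:56721867-56722116, plus strand): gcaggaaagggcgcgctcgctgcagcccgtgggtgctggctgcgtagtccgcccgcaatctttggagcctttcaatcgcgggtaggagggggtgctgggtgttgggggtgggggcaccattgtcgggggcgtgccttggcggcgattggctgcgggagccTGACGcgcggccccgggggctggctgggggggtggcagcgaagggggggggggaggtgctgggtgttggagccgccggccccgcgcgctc
Ednrb (chr14:103843702-103843951, minus strand): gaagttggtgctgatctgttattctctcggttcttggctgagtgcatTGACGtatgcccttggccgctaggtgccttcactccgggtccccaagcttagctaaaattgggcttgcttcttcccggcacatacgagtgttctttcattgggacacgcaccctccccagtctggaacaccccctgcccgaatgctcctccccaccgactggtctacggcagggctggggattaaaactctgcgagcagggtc
TGACG began 90 bases before the start in Adrb1 and 203 bases before it in Ednrb, whose window lies inside the span that the deposited table gives for the gene. The letters were searched on both strands, and 17.8% of 32851 promoter windows of the same length held them, so 2 of 7 windows is a description only. Searched as well were ACGTG, a form of the hypoxia response element core, AGATAA for GATA factor sites and CATTCC for TEAD factor sites. Each was in 0 of the 7 windows, against 16.6%, 9.99% and 12.6% of all windows in that order. Other forms of these sites were not searched, such as GCGTG, which the Adrb1 sequence above holds. The windows also differed in base composition. GC content was 74.0% in Adrb1 and 78.0% in Adcy5, above the median of 52.4% over all windows, while Chrm2 (50%), Ednra (54.8%) and Ednrb (56.8%) lay closer to that median. Adra1b lay on both sides of it, with 72.8% in 1 window and 41.6% in the other.

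In control cells, Chrm2 had the highest level per kilobase of the 9 genes, at 40.9 ± 1.16 CPM per kilobase (SD, n = 3). It was followed by the cyclases Adcy6 (32.7 ± 2.47) and Adcy5 (27.0 ± 2.99), and then by Adrb1 (9.01 ± 0.916). Ednra (6.66 ± 0.105) and Adra1b (5.71 ± 0.950) were the only neighbours in this order whose libraries overlapped, and below them stood Agtr1a (3.08 ± 0.390), Ednrb (1.03 ± 0.196) and Adra1a (0.0297 ± 0.0191). After 6 h of hypoxia the order was another one. Adcy6 led with 16.8 ± 0.664 CPM per kilobase, Adcy5 (2.93 ± 0.648), Adrb1 (1.86 ± 0.306) and Chrm2 (1.64 ± 0.485) followed, each overlapping with its neighbour, and Ednra (0.868 ± 0.168) and Adra1b (0.681 ± 0.299) overlapped as well. Agtr1a (0.149 ± 0.0356) and Ednrb (0.123 ± 0.0366) could no longer be ordered, and Adra1a (0.00663 ± 0.00662) remained last.

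**Figure D1:**
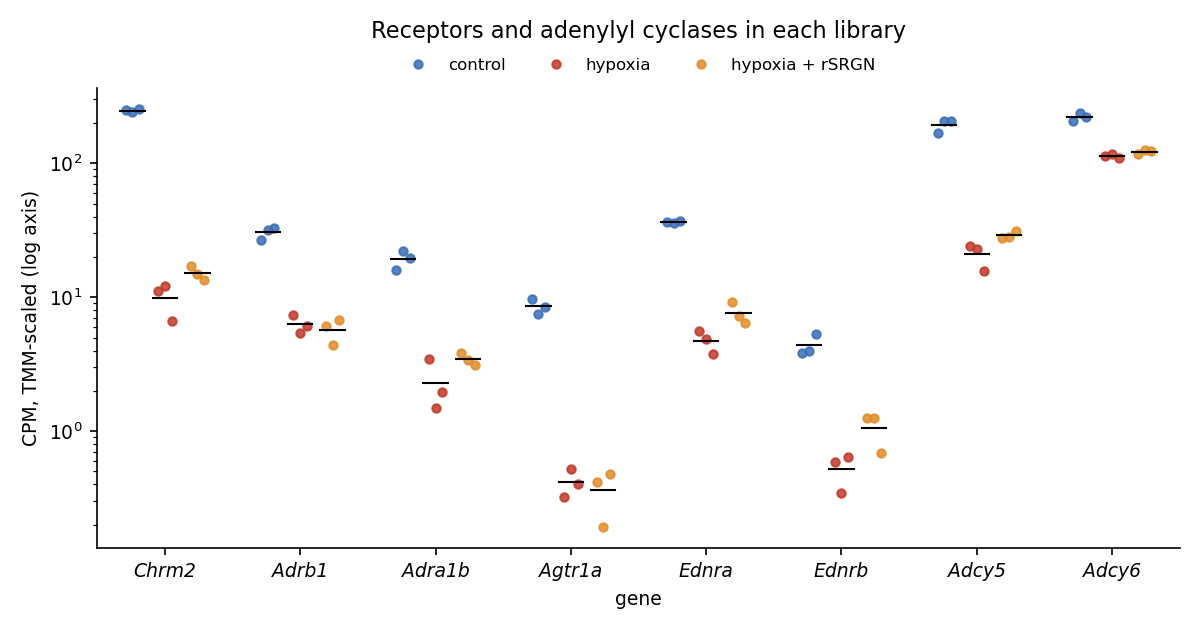
Levels of the 8 tested genes in each of the 9 libraries, as TMM-scaled CPM on a log axis. Points are libraries, coloured by group, and black bars are group means (n = 3). Every control point of a gene lies above all 6 points of its hypoxic libraries, and the gap is narrowest for Adcy6.

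In hypoxia, levels of Adrb1, Adra1b, Chrm2, Ednra, Ednrb, Adcy5 and Adcy6 were lower than in control, 7 of the 9 genes, which passed the filter on low counts in control and in the hypoxic groups alike. All 7 were called lower, against 25.1% of all tested genes, and in each of them every hypoxia library lay below every control library, which held for 35.3% of all tested genes. Their median log2 fold change was -3.05, beside 0.05 for all genes tested. Agtr1a was called lower as well, but it passed the filter through its control libraries alone, so it could be tested only because it was high there, and Adra1a was not tested. They fell by very different amounts, from 1.95-fold in Adcy6 to 24.9-fold in Chrm2. The summed level of the 8 cardiomyocyte markers fell as well, from 32980 to 40560 CPM in control to 2967 to 4398 CPM in hypoxia. All 8 of those markers were called lower, with a median log2 fold change of -3.75. Fibroblast markers stood at 17100 to 19890 CPM in hypoxia, with 6 of 8 called higher and 0 lower. The part of these shifts in the fall of the receptors was not tested.

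Adrb1 encodes the β1-adrenergic receptor, the main target of noradrenaline on heart muscle cells. It lies at chr19:56722199-56733113 on the plus strand (GRCm38), with 3382 exonic bases. Its level was 27.0, 31.7 and 32.8 CPM in the control libraries, 7.41, 5.37 and 6.08 CPM in hypoxia and 6.08, 4.38 and 6.76 CPM in hypoxia + rSRGN. The control libraries stood apart from the rest, whereas both hypoxic groups overlapped throughout. The log2 fold change in hypoxia against control was -2.27 ± 0.148 (SE, adjusted p = 5.75e-12 in edgeR's quasi-likelihood test after Benjamini-Hochberg adjustment), so that 20.7% of the control level was left.

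The α1-adrenergic receptors couple to Gq. Adra1b (chr11:43774606-43901210, minus strand, 3382 exonic bases) had 15.95, 22.35 and 19.66 CPM in control, 3.438, 1.502 and 1.969 CPM in hypoxia and 3.81, 3.37 and 3.12 CPM in hypoxia + rSRGN. It fell 8.30-fold in hypoxia, a log2 fold change of -3.05 ± 0.211 (edgeR, adjusted p = 1.62e-11). The first hypoxia library was the highest of its group and lay within the range of the rSRGN libraries. Adra1d, the third gene of this receptor class, fell with it by 2.73 on the log2 scale (edgeR, adjusted p = 7.41e-07).

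Adra1a (chr14:66635251-66771168, plus strand, 8728 exonic bases) was close to the limit of detection in these libraries. Its counts were 10, 3 and 4 in control, 0, 2 and 1 in hypoxia and 0, 0 and 1 in hypoxia + rSRGN. Summed over each group, the level in hypoxia was 0.216 times that in control, with an exact 95% counting interval of 0.0406 to 0.747, and the level in hypoxia + rSRGN was 0.0678 times that in control (0.00162 to 0.433). Between the hypoxic groups the ratio of 0.314 had an interval of 0.00598 to 3.91, so no difference was detectable at this depth. These intervals cover counting error only. Adra1b held 71.8% to 75.3% of the summed level per kilobase of the 3 α1 receptor genes in control, and Adra1a at most 0.784%.

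Chrm2 encodes the M2 muscarinic receptor, which carries vagal slowing of the heart. It lies at chr6:36388084-36528414 on the plus strand (6053 exonic bases). It was the highest receptor gene in control, at 249.0, 240.2 and 254.1 CPM, and stood at 11.1, 12.1 and 6.60 CPM in hypoxia and at 17.04, 14.98 and 13.47 CPM in hypoxia + rSRGN. None of the 3 groups overlapped with another. The fall in hypoxia was the largest of the 8, with a log2 fold change of -4.64 ± 0.135 (edgeR, adjusted p = 9.84e-18) and 4.02% of the control level left. Chrm2 made up 99.4% to 99.7% of the summed level per kilobase of the 5 muscarinic receptor genes in control and 71.4% to 80.6% in hypoxia. Its annotated exons overlap those of the antisense gene 9330158H04Rik over 142 bases (2.35%), where fragments counted without strand can go to neither or be mixed.

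Agtr1a encodes the angiotensin II type 1a receptor (chr13:30336441-30382867, plus strand, 2786 exonic bases). It had 9.71, 7.54 and 8.46 CPM in control, 0.322, 0.520 and 0.405 CPM in hypoxia and 0.417, 0.193 and 0.475 CPM in hypoxia + rSRGN. The 6 hypoxic libraries lay in 1 range, far below control. None of these 6 reached the level that the filter asks for, so the direction was fixed by the filter and the size is a description. The fall was 20.4-fold (log2 fold change -4.35 ± 0.303), and it is not ranked against genes that could move either way. Agtr2, the type 2 receptor, was tested and not called (log2 fold change 0.16, edgeR adjusted p = 0.798). Over 3 genes, Agtr1a held 93.5% to 95.2% of the summed angiotensin receptor level per kilobase in control. In hypoxia it held 33.0% to 62.6%.

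On the ligand side of the same axis, Ace, which converts angiotensin I to angiotensin II, moved the other way. It had 94.4 to 109.7 CPM in control and 220.1 to 257.7 CPM in hypoxia, a log2 fold change of 1.22. Agt, the gene of the precursor angiotensinogen, was not called (0.28, edgeR adjusted p = 0.145), and Mme, an enzyme that breaks down angiotensin and endothelin peptides, was called lower (-0.71). Ace, Agt, Mme, Ece1, Ece2 and Adra2a are named here after their values were seen.

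The endothelin receptors ETA and ETB bind endothelin-1, a strongly vasoconstrictive peptide that also acts on cardiac muscle. Ednra (chr8:77663031-77724464, minus strand, 5476 exonic bases) had 36.8, 35.8 and 36.8 CPM in control, 5.59, 4.91 and 3.77 CPM in hypoxia and 9.29, 7.28 and 6.44 CPM in hypoxia + rSRGN. Ednrb (chr14:103814625-103844402, minus strand, 4266 exonic bases) had 3.86, 3.97 and 5.36 CPM in control, 0.591, 0.347 and 0.637 CPM in hypoxia and 1.25, 1.25 and 0.687 CPM in hypoxia + rSRGN. For both genes the 3 groups were separate in the same order, with control highest and hypoxia lowest. Ednra fell 7.64-fold in hypoxia (log2 fold change -2.93 ± 0.143, edgeR adjusted p = 3.58e-14) and Ednrb 8.27-fold (-3.05 ± 0.349, edgeR adjusted p = 6.78e-08).

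The ratio between the receptor types overlapped between all groups. Per kilobase, Ednra was 5.35 to 7.42 times as abundant as Ednrb in control, 4.6 to 11 times in hypoxia and 4.52 to 7.31 times in hypoxia + rSRGN. Ednra shares 91 exonic bases (1.66%) with the antisense gene 4933431K23Rik, and Ednrb shares none with another gene.

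Of the 3 endothelin ligand genes, Edn1 rose in hypoxia, and Edn3, with 0 counts in control and hypoxia, was not tested. Edn1, which encodes the precursor of endothelin-1, had 8.63, 10.8 and 11.5 CPM in control and 71.6, 62.5 and 71.9 CPM in hypoxia. This was a 6.67-fold rise (log2 fold change 2.74 ± 0.108, edgeR adjusted p = 9.59e-16). Edn2 had 5 counts in all 3 control libraries together and 104 in the hypoxia libraries, and passed the filter through the hypoxic groups alone, so its direction was fixed by the filter. Ece1, the enzyme that releases the active peptide, had a log2 fold change of 0.74 and was called higher, and its relative Ece2 had one of -0.66 and was not called.

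**Figure D2:**
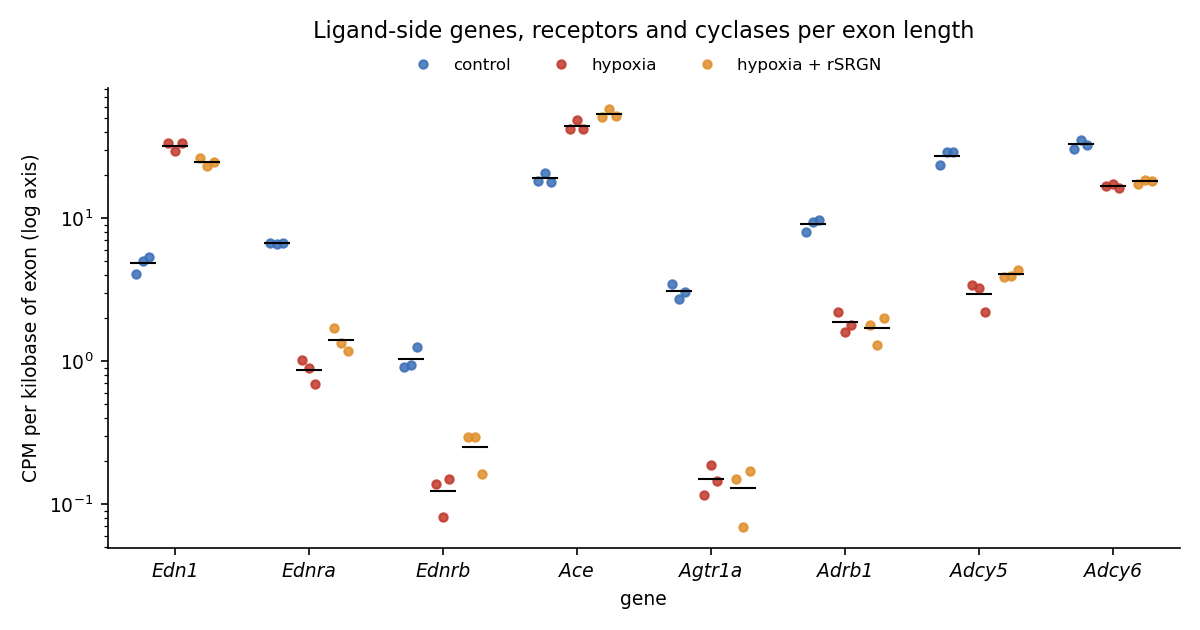
CPM per kilobase of exon on a log axis for endothelin and angiotensin genes, Adrb1 and the cyclases, with a point for each library and a black bar for each group mean (n = 3). Edn1 and Ace rise in hypoxia where Ednra, Ednrb and Agtr1a fall, and Adcy5 parts from Adcy6.

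Adcy5 and Adcy6 encode the closely related, calcium-inhibited adenylyl cyclases that dominate in heart muscle. Adcy5 (chr16:35154877-35305738, plus strand, 7184 exonic bases) had 169.2, 206.5 and 206.3 CPM in control, 24.3, 23.1 and 15.7 CPM in hypoxia and 27.8, 28.4 and 31.1 CPM in hypoxia + rSRGN. Adcy6 (chr15:98589973-98610076, minus strand, 6782 exonic bases) had 205.8, 239.2 and 221.1 CPM in control, 113.7, 118.1 and 109.1 CPM in hypoxia and 118.0, 125.4 and 123.0 CPM in hypoxia + rSRGN. In control the levels of both genes were near each other, and in hypoxia Adcy6 was far the higher. Adcy5 fell 9.21-fold (log2 fold change -3.20 ± 0.12, 95% interval -3.45 to -2.95, edgeR adjusted p = 4.53e-16) and Adcy6 1.95-fold (-0.97 ± 0.073, -1.12 to -0.82, edgeR adjusted p = 7.59e-11).

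The ratio of Adcy5 to Adcy6 per kilobase was 0.776 to 0.881 in control, 0.136 to 0.202 in hypoxia and 0.214 to 0.239 in hypoxia + rSRGN, with no overlap between the 3 groups and no test of the ratio. The exons of Adcy6 overlap Gm29331 on the other strand over 605 bases (8.92%), the largest such overlap among the 9 genes, and those of Adcy5 overlap no other gene. Over the 10 adenylyl cyclase genes, the summed level per kilobase went from a median of 77.9 in control to 38.1 in hypoxia. Adcy6 held 41.9% to 44.5% of it in control and 44.0% to 45.6% in hypoxia, while the share of Adcy5 went from 34.5% to 36.9% down to 6.20% to 8.87%. The shares of Adcy4 (14.8% to 17.6%) and Adcy7 (16.3% to 17.5%) in hypoxia were above those in control (3.71% to 4.30% and 4.26% to 4.58%).

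**Figure D3:**
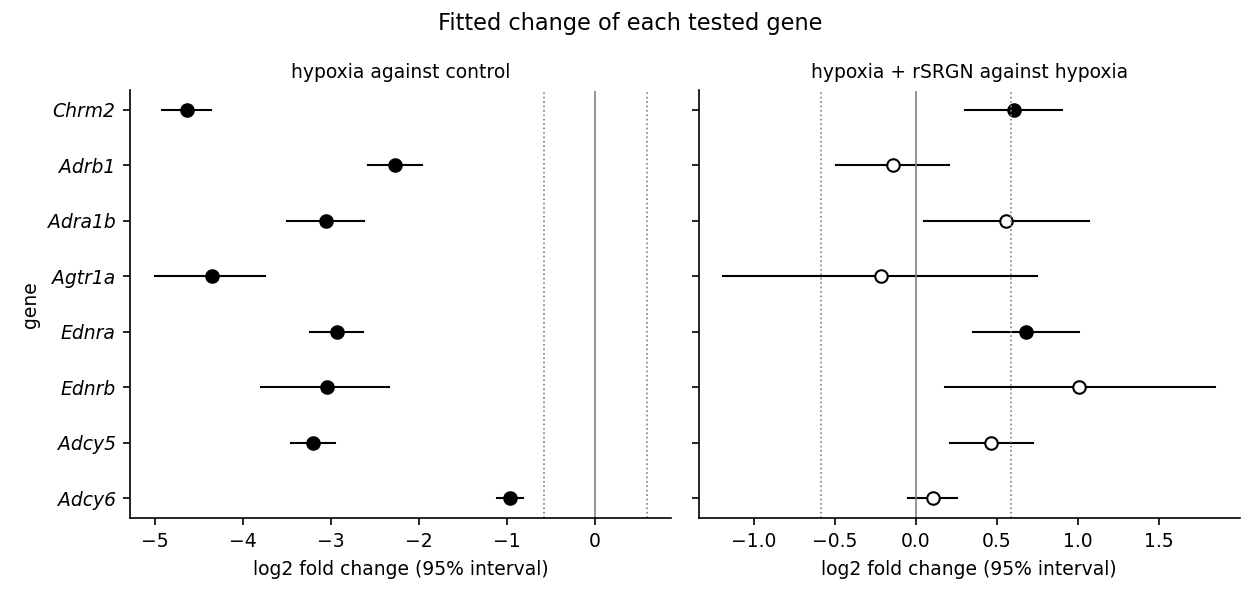
Fitted log2 fold changes of the 8 tested genes with 95% intervals, for hypoxia against control (left) and hypoxia + rSRGN against hypoxia (right), on axes of different range. Filled points were called, open points were not, and dotted lines mark a 1.5-fold change. All 8 points are filled on the left, and those of Chrm2 and Ednra are filled on the right.

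The genes around these receptors did not move in 1 direction. Their counts stand beside 26.4% of all tested genes called higher and 25.1% called lower in hypoxia against control. Of 13 other receptors of the same families, 5 had enough counts to be tested, with 1 called higher and 1 lower in hypoxia. The gene called higher was Adra2a, an inhibitory α2-adrenergic receptor, at 0.0903 to 0.145 CPM in control and 0.637 to 1.62 CPM in hypoxia, on 8 and 64 counts in all. It passed the filter through the hypoxic groups alone and could only be tested as a rise, and without it 1 of 4 was called, and was lower. Of the other adenylyl cyclases, 7 of 8 were tested, and 2 rose and 2 fell. Adcy4 and Adcy7 rose by 1.02 and 0.91 on the log2 scale, and Adcy1 and Adcy9, which fell, had log2 fold changes of -2.52 and -2.32.

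Among 14 tested genes of 21 for ligand synthesis and clearance, 5 were called higher and 6 lower, or 4 and 6 of 13 without Edn2. Edn2 and Edn1 had the largest log2 fold changes above 0, and Dbh and Ddc, enzymes of catecholamine synthesis, the largest falls. Ddc went from 113.5 to 124.3 CPM in control to 5.39 to 6.66 CPM in hypoxia (19.2-fold), and Dbh fell 22.03-fold.

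Of 20 tested subunits of the heterotrimeric G proteins that couple the receptors, 4 were called higher and 3 lower, with a median log2 fold change of 0.09. Without Gnb3, which passed the filter through control alone, 4 were higher and 2 lower. At an unadjusted p below 0.05, with no limit on fold, 8 were higher and 7 lower. The α subunit genes Gnaq (-0.19) and Gnai2 (0.51), which carry the Gq and Gi signal, were not called at these log2 fold changes. Gnai2 was higher in every hypoxia library (edgeR adjusted p = 1.35e-06) and missed only the limit on fold. Gnaq also passed the p threshold and missed that limit (edgeR adjusted p = 0.046), with libraries that overlapped between the groups. Gnb4 (0.83) and Gng11 (0.80) rose most, and Gng2 (-1.67) and Gnb5 (-0.89) were the lowest of the called subunits with a mean of at least 1 CPM. Gnas, the Gs α subunit gene, had 62.9, 65.8 and 56.6 CPM in control and 78.3, 89.8 and 21.0 CPM in hypoxia. The third hypoxia library stood far below the others, and the log2 fold change of 0.03 had a 95% interval of -0.66 to 0.72, so no direction could be given. The 3 α subunit genes were picked by name as the carriers of the signal, after their values were seen.

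Among 14 tested genes for receptor desensitization and RGS proteins, 2 rose and 4 fell. Grk3, a kinase that phosphorylates activated receptors, fell 10.5-fold and Rgs6, an RGS protein that shortens the muscarinic response of the heart, 10.2-fold. Arrb2, a β-arrestin gene, and Rgs3 rose 1.99-fold and 1.82-fold.

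Of 30 tested genes for cyclic AMP effectors and phosphodiesterases, 19 were called lower and 5 higher, with a median log2 fold change of -0.84. Without the 3 that passed the filter through 1 side alone (Pde2a, Pde8b and Pde4c), 18 of 27 were lower and 4 higher. Akap6, which anchors protein kinase A at the nuclear envelope of myocytes, went from 229.8 to 299.9 CPM in control to 11 to 16.12 CPM in hypoxia. Popdc2, a cyclic AMP binding membrane protein of heart muscle, went from 616.0 to 712.9 to 33.7 to 43.9 CPM. Rapgef3, the exchange factor Epac1, rose 2.29-fold and Prkar2b, a regulatory subunit of protein kinase A, 1.95-fold. Of 19 tested Gq effectors 5 rose and 6 fell, with Prkd2 (0.90) and Plcb3 (0.88) the highest and Plcb2 (-3.72) and Prkce (-1.53) the lowest log2 fold changes. Plcb2 passed the filter through control alone, and without it 5 rose and 5 fell.

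**Figure D4:**
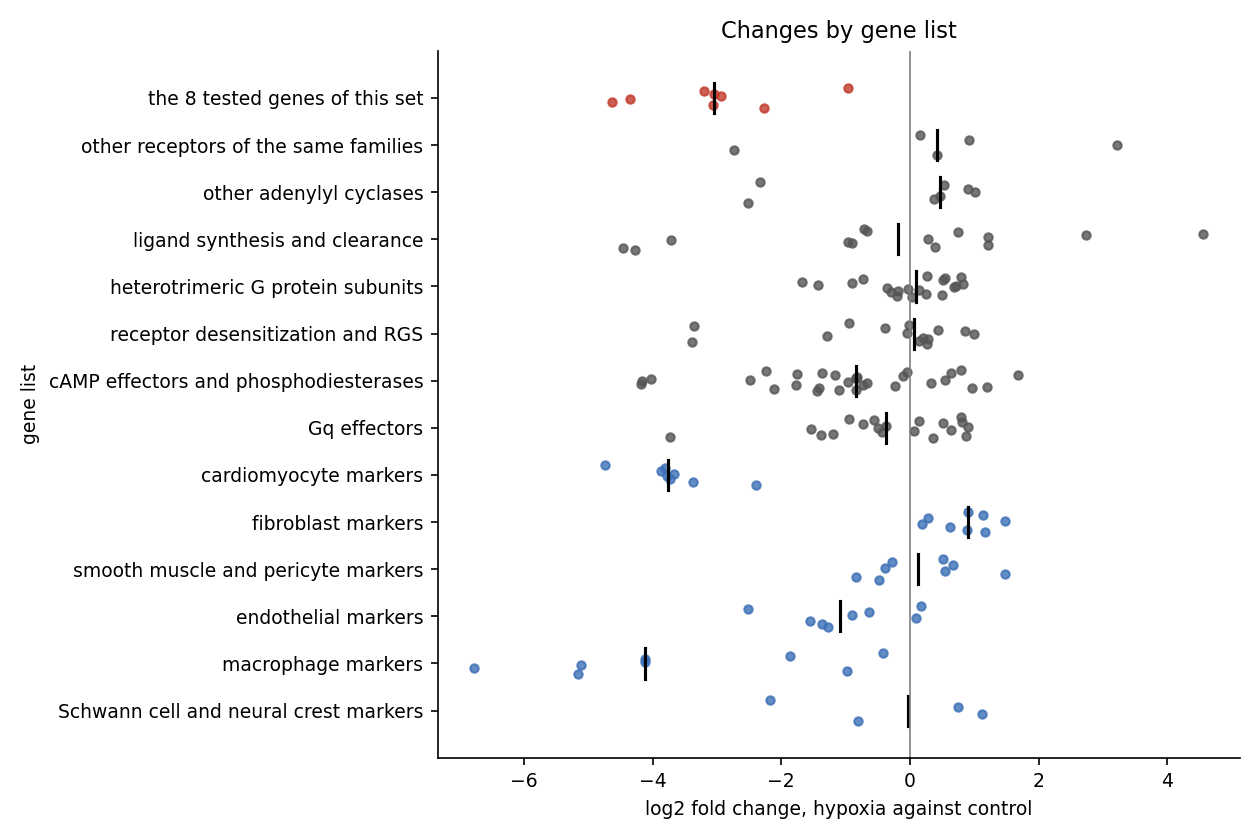
Log2 fold changes in hypoxia against control for the 8 tested genes (red), the lists of genes around them (grey) and cell type markers (blue). Each point is a tested gene and each black bar the median of its list. The median of the 8 genes is -3.05, that of the cardiomyocyte markers is -3.75, and those of the signalling lists are all at or above -0.84. That of the macrophage markers is -4.12, but 5 of these 8 passed the filter on low counts through control alone. Over the other 3 it is -0.98.

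The other cell type markers moved in several directions between control and hypoxia. Endothelial markers, of interest since ETB receptors are also made by endothelial cells, summed to 74.0 to 103.2 CPM in control and 50.04 to 64.46 CPM in hypoxia, with 6 of 8 called lower, 1 of which (Vwf) passed the filter through control alone. Smooth muscle and pericyte markers summed to 1715 to 2024 and 2401 to 2713 CPM, with 2 of 8 called higher and 1 lower. Acta2 makes up most of that sum, at 1272 to 1514 and 1847 to 2173 CPM. The median log2 fold change of the 8 was 0.12. It was -0.28 without Kcnj8, which passed the filter through the hypoxic groups alone. Macrophage markers summed to 39.6 to 48.4 and 10.5 to 11.9 CPM, with 7 of 8 called lower, 5 of which passed the filter through control alone. Of the Schwann cell and neural crest markers 4 of 8 were tested, with 2 higher and 2 lower, and Foxd3 was at 0 in hypoxia. Their part in the changes of the receptor genes was not tested.

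Adding rSRGN during hypoxia addressed whether the protein alters these genes under the same oxygen and medium. Against hypoxia alone, 2 of the 8 genes were called higher, Chrm2 and Ednra, and 0 lower by edgeR, beside 2.27% of all tested genes called higher. DESeq2 called 2 higher too, and at an unadjusted p below 0.05 edgeR had 5 higher and 0 lower. In 4 of the 8, which were Chrm2, Ednra, Ednrb and Adcy5, every rSRGN library lay above every hypoxia library, as it did for 16.5% of all tested genes. The median log2 fold change of the 8 was 0.51, beside -0.03 for all genes.

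Chrm2 rose 1.52-fold (log2 fold change 0.60 ± 0.144, edgeR adjusted p = 0.00617) and Ednra 1.60-fold (0.68 ± 0.158, edgeR adjusted p = 0.00522). Both calls rest close to the limit of 1.5-fold. Without the third hypoxia library, the lowest for both, the log2 fold changes were 0.39 for Chrm2 and 0.54 for Ednra, and without the first hypoxia + rSRGN library, the highest for both, they were 0.52 and 0.53, below that limit in each case, while the adjusted p stayed below 0.05 in edgeR. With scaling by library size alone Chrm2 was just under it.

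Ednrb had a larger fitted change with a wider error, 1.01 ± 0.401 on the log2 scale (2.01-fold, edgeR adjusted p = 0.0897), and was not called. Without the third hypoxia + rSRGN library, the lowest of its group, it was called (1.25, edgeR adjusted p = 0.0475). Adcy5 passed the p threshold but not the limit on fold, at 1.38-fold (0.47 ± 0.123, edgeR adjusted p = 0.012). For Adra1b the log2 fold change was 0.56, with a 95% interval of 0.05 to 1.07 and an edgeR adjusted p of 0.127. It depended on 1 library, since without the first hypoxia library the log2 fold change was 0.98 (edgeR adjusted p = 0.00864), and Adcy5 then also passed both limits.

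Adrb1 (-0.14, 95% interval -0.49 to 0.21), Agtr1a (-0.22, -1.19 to 0.75) and Adcy6 (0.10, -0.05 to 0.26) had log2 fold changes whose intervals include 0. Agtr1a was counted at only 0.193 to 0.520 CPM in the hypoxic libraries, and its interval was the widest of the 3. The signs for Adrb1 and Agtr1a turned without the second hypoxia + rSRGN library, to 0.03 and 0.11.

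Cardiomyocyte markers were higher with rSRGN as well. Their sum was 5513 to 5764 CPM against 2967 to 4398 CPM in hypoxia, 7 of 8 were called higher, and their median log2 fold change was 0.77. Fibroblast markers summed to 18920 to 19480 CPM, with 0 called higher and 1 lower by edgeR (1 higher and 2 lower at an unadjusted p below 0.05). Smooth muscle and pericyte markers summed to 2275 to 2398 CPM, below the 2401 to 2713 CPM of hypoxia, with 1 of 8 (Rgs5) called higher. Acta2 makes up most of that sum, at 1580 to 1692 CPM with rSRGN and 1847 to 2173 CPM in hypoxia. The median log2 fold change of the 8 was 0.26, so the sum does not stand for most of them. Endothelial markers summed to 51.7 to 66.5 CPM against 50.04 to 64.46 CPM, with 1 of 8 (Kdr) called higher. The part of these markers in the rise of Chrm2 and Ednra was not tested.

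In the 7 lists around the receptors, 8 of 109 tested genes (7.34%) were called higher between the hypoxic groups and 0 lower, beside 2.27% of all tested genes called higher. Adcy1 (0.73), Dbh (1.46), Bche (0.81), which breaks down choline esters, Rgs5 (0.78), the phosphodiesterase Pde1c (0.88), Akap6 (0.63) and the protein kinase C gene Prkce (0.61) were among them. Of these 7, 4 lost the call without 1 library. Dbh (1.22, edgeR adjusted p = 0.0865) and Rgs5 (0.69, edgeR adjusted p = 0.0745) lost it without the second hypoxia + rSRGN library, and Rgs5 also without the third hypoxia library (0.63, edgeR adjusted p = 0.0661). Akap6 fell below the limit on fold without the third hypoxia library (0.47), and Prkce without the first hypoxia library (0.55) or the third hypoxia + rSRGN library (0.57). In a fit of only the hypoxic groups, Dbh was not called either (edgeR adjusted p = 0.0538). Of the other receptors and the G protein subunits, 0 were called by edgeR. At an unadjusted p below 0.05, 1 of 5 of these receptors was higher, which was Adra1d, and 6 of 20 subunits were higher and 1 lower, while DESeq2 called 1 receptor and 0 subunits. Edn1 was lower with rSRGN in every library, at 49.3 to 55.8 CPM against 62.5 to 71.9 CPM, a log2 fold change of -0.39 ± 0.096 (edgeR adjusted p = 0.00822) that is under the limit on fold and was looked at after the ligand had been seen to rise in hypoxia.

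Relative to control, hypoxia with rSRGN left the same 7 genes lower, with every library below control, and Agtr1a too, with its direction again fixed by the filter. Of all tested genes 24.7% were called lower in this comparison, and 36.6% had every library below control. This comparison shares its control libraries with that of hypoxia against control, so the values are set side by side and are not a repeat. The share of the control level left was 4.02% without and 6.11% with rSRGN for Chrm2, 13.1% and 21.0% for Ednra, 12.1% and 24.3% for Ednrb, and 10.9% and 15.01% for Adcy5. It was 12.04% and 17.75% for Adra1b, 20.7% and 18.8% for Adrb1, 4.90% and 4.22% for Agtr1a, and 51.2% and 55.0% for Adcy6. The order of genes by this share kept Adcy6 at the top in both.

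Across the 9 libraries the 8 genes followed each other closely, since all are high in control. Pearson's r of log2 CPM over the 28 pairs was 0.879 to 0.996, with a median of 0.964. The number of genes with a very similar pattern differed from gene to gene. Counts differed too, with 28 for Ednrb and 530 for Chrm2 over the hypoxia libraries, and their part in this was not tested. Over 12808 candidates, 468 genes had an r above 0.99 with Chrm2, led by Cap2 and Pitpnc1, and 429 with Adcy5, led by 3425401B19Rik. For Ednra there were 287, led by Opa1 and Osbpl8, and for Adcy6 168, led by Slc27a1 and Tmem94. Adrb1 had 34 (Arfgap2 and Gatd3a first), Adra1b 28 (Thsd4 and Vsnl1), Agtr1a 47 (Slc25a12 and Nsun4) and Ednrb 3 (C530008M17Rik and Phka1 first). These are descriptions over 9 points in 3 groups, of which control differs from the hypoxic groups in oxygen, medium and depth.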

How the data were processed

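RNA of 9 NMVM libraries was sequenced after poly(A) enrichment on a Illumina NovaSeq. The authors deposited whole-number counts per gene without normalization, made per the file header with featureCounts 2.0.1 on exons of GENCODE mouse release 25 (GRCm38) in paired-end mode with no strand option. The submitters' processing notes name HISAT2 and mm10, and the aligner version is not given in the sources used here. Groups and replicate numbers came from the sample labels, and all 9 columns of counts were used (0 left unused).

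Low genes were removed by filterByExpr in edgeR 4.0.16 (R 4.3.3), which kept 16762 of 55401 (at least 3 libraries at 0.533 CPM or more, which is 10 counts at the median depth). TMM factors were computed, 1 model with 3 group means was fitted to the 9 libraries, and contrasts were tested by quasi-likelihood. The p-values were adjusted by the Benjamini-Hochberg method over every tested gene. Calls required adjusted p < 0.05 together with a change of 1.5-fold or more. SE and 95% intervals are of the log2 fold change. Adra1a, which did not pass the filter, is given by summed counts with exact 95% intervals. Total counts of 16583985 to 22781557 set the precision. Libraries of a group differed beyond sampling noise and were each counted as 1 replicate. The script was tested on simulated data. DESeq2 1.42.0, other scalings, filters and thresholds, fits of only the groups compared, a replicate block and leaving out each library were the alternatives.

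The genes described and the lists around them were chosen with earlier results of these data known. Named from each list were up to 2 called genes with the largest rise and up to 2 with the largest fall, among genes with a mean of at least 1 CPM, without genes that had no count in a group. For likeness, the 2 protein-coding genes with the highest Pearson r were named. Genes outside this rule are said to be so in the text. Popdc1 was not found by symbol. A few results that the naming rule covers are not reported here. Promoter windows came from RefSeq.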

Additional observations from a re-analysis of the deposited data

How the results depend on the processing

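In hypoxia against control and in hypoxia + rSRGN against control, the log2 fold change of each tested receptor and cyclase gene kept its direction and its call under every alternative that gave a value. The counts of genes called were 8496 to 8952 and 8028 to 8535 without 1 library each, and 8 of the 8 genes were called lower each time. Agtr1a passed the filter through control alone, so its direction was fixed, and the kept directions and calls bear on the other 7 genes only. With at least 10 counts required in every library, Agtr1a and Ednrb left the test and 6 of 6 were called lower. Hypoxia + rSRGN against hypoxia depended more on the settings. Its 525 genes called became 899 with unadjusted p, 2790 without the limit on fold, and 321 to 699 without 1 library each. The 2 genes called higher, Chrm2 and Ednra, became 1 with library size alone and 0 to 4 without 1 library each. It was 0 without the third hypoxia library or the first hypoxia + rSRGN library, and 4 without the first hypoxia library. Without 1 library each, the log2 fold change of Adrb1 was -0.27 to 0.03 and that of Agtr1a -0.47 to 0.11, with the sign turned without the second hypoxia + rSRGN library. The cause was not tested, beyond each setting's own construction. Of all calls in that comparison 72.57% were higher, with 80.66% under RLE scaling and 66.86% under library size alone. Of 678 alternative values for the other named genes 670 kept direction and call. The 7 lost calls were all in hypoxia + rSRGN against hypoxia and touched 4 of the 7 genes named there as called (Dbh, Rgs5, Prkce and Akap6), 1 was gained (Edn1, without the limit on fold) and 0 reversed. Of 504 counts of called genes in the lists 456 stayed within 1.5 times. Samples with the same replicate number did not deviate together (correlations -0.037 to 0.021). The labels do not say whether they share a culture or litter, and these correlations cannot tell. With the replicate block, 8550, 495 and 8096 genes were called in the 3 comparisons, with 8, 2 and 8 of the receptor and cyclase genes. Depth limits Adra1a, Agtr1a and Ednrb most.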
